A study of Mus musculus with 20 samples.

Results

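The gene set described here comprises 27 mouse genes of fatty acid oxidation: the transcription factor Ppara, genes for each mitochondrial step of the pathway, and peroxisomal, ketone body, acyl-CoA thioesterase and fuel-selection genes that PPARA is known to control in mouse liver. The genes were taken by symbol, out of 32400 genes in the deposited table, from a list of names drawn up with earlier results of these data known, so the counts below describe the list and do not test it. All 27 were found, each as a single row, and all 27 were among the 13667 genes with enough counts to be tested. Messenger RNA of C57BL/6NTac mouse liver was sequenced in 20 libraries. In 8 of them the mice had received a guide RNA against Flcn, the gene of folliculin, carried by AAV8, a viral vector that reaches the liver, and were fed a diet high in fat and fructose (HFHF); these are the HFHF Flcn gRNA libraries. In 7 libraries the mice had received the vehicle, PBS, and the same diet (HFHF control), and in 5 the mice were untreated and ate standard chow (chow control). The sources used here give neither age nor sex, neither the guide's sequence nor the source of the nuclease, and the control mice received no vector, so vector and guide cannot be told apart. Chow and HFHF control mice differed in diet and also in the PBS injection.

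PPARA is a nuclear receptor that binds fatty acids, pairs with RXR at direct repeats of AGGTCA and raises transcription of fatty acid oxidation genes during fasting. Long-chain fatty acids enter mitochondria as carnitine esters and are shortened by repeated rounds of dehydrogenation, hydration, a second dehydrogenation and thiolysis, with electrons passed on through the electron transfer flavoprotein. In liver much of the resulting acetyl-CoA is turned into ketone bodies for export, while peroxisomes shorten very long chains and thioesterases release fatty acids from coenzyme A.

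The libraries held between 13974379 and 19586576 estimated counts in the 8 HFHF Flcn gRNA libraries, 15244760 to 18194089 in the 7 HFHF control libraries and 14131976 to 16285324 in the 5 chow libraries. Levels are given as CPM, counts scaled to each library's total after TMM normalization. Flcn itself had 17.8 ± 2.4 CPM in HFHF Flcn gRNA livers, 20.7 ± 3.0 CPM in HFHF control livers and 22.2 ± 6.0 CPM in chow livers (SD, n = 8, 7 and 5). Its log2 difference between HFHF Flcn gRNA and HFHF control was -0.22 (edgeR adjusted p = 0.14), with overlapping groups, and against chow it was -0.32 (edgeR adjusted p = 0.04995, against a threshold of 0.05), a call that was lost under 6 of 6 other settings and on leaving out most single libraries. Edits at a guide's target need not lower the transcript's level, so this is a weak check of the labels. Replicate 8 of the HFHF Flcn gRNA group had 26.4% of its counts on mitochondrially encoded genes, against 12.4% to 17.5% in the other 19 libraries. The title of that library also carries a different second number from the other 19 titles, which share one, and the labels do not say what the number means. The summed level of 12 hepatocyte markers was 57860 to 90690 CPM in HFHF Flcn gRNA, 50640 to 71370 in HFHF control and 85720 to 109100 in chow libraries. The 13 stellate cell markers summed to 272 to 423, 704 to 1011 and 212 to 266 CPM in the same order of groups, and the 12 macrophage markers to 222 to 500, 251 to 534 and 110 to 212 CPM. Cholangiocyte markers, 4 of 6 measured, summed to 30.5 to 80.8, 93.4 to 228 and 24.8 to 35.7 CPM. The 5 adipocyte markers summed to 4.82 to 35.3, 0.361 to 6.35 and 0.0735 to 0.311 CPM. Among them Adipoq and Lep were at 0 in every library of both HFHF groups, and the 1 marker with enough counts to be tested, Cfd, the gene of complement factor D, was higher with the guide by 2.83 on the log2 scale (edgeR adjusted p = 0.000212) and also higher in HFHF control than in chow livers. At an edgeR adjusted p under 0.05, 6 of the 12 macrophage markers (50%) were lower with the guide and 2 (16.7%) higher. The shares over all genes tested were 19% and 19.6%. Log2 differences of the macrophage markers ranged from -2.25 to 2.27, with a median of -0.60, so their sum hides changes in both directions. The part of these marker differences in the results below was not tested, and in bulk tissue fewer cells of a type and less RNA per cell cannot be told apart.

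Livers with the Flcn guide had more messenger RNA for most of these genes than HFHF control livers. Of the 27 genes, 17 were higher at an adjusted p under 0.05 in edgeR's quasi-likelihood test with Benjamini-Hochberg adjustment over all genes, against 19.6% of all genes tested. None was lower, where 19% of all genes were; at an unadjusted p under 0.05 edgeR also gave 0 lower genes and DESeq2 gave 0. The other 10 did not pass. The median log2 difference of the 27 genes was 0.31, against 0.01 over all genes tested. Hepatocyte markers moved by a similar amount: 6 of 12 (50%) were higher with the guide and 0 lower, with a median of 0.26. In HFHF control against chow livers 0 of these markers were higher and 10 lower, with a median of -0.63. Their part in the differences of the 27 genes was not tested. Differences in the 27 genes were small. The largest of those that passed were 0.99 for Acot1 and 0.79 for Ppara, and the smallest was 0.20. In 6 genes the lowest library with the guide was above the highest HFHF control library, which held for 5.04% of all genes: Ppara, Acadl, Hadha, Eci1, Etfa and Etfdh. The summed level of the 27 genes ranged from 6003 to 7882 CPM with a median of 7061 in the 8 HFHF Flcn gRNA libraries, from 5290 to 7010 with a median of 5676 in the 7 HFHF control libraries, and from 4943 to 5688 with a median of 5395 in the 5 chow libraries. Acaa1b alone averaged 1128, 1136 and 606 CPM in those groups, where the mean sums were 6931, 5885 and 5289 CPM. The difference in the sum between HFHF control and chow livers therefore rests largely on that gene. Left out in turn, the libraries moved the count of higher genes between 12 and 21.

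The diet comparison went both ways within the set. In HFHF control livers 8 of the 27 genes were higher than in chow livers, against 28.1% of all genes, and 7 were lower, against 28.9%; 12 did not pass. The shares are near those of all genes. The median log2 difference was 0.11, against -0.01 over all genes, and 0.06 without replicate 5 of the HFHF control group. Every HFHF control library lay above every chow library in 5 genes (18.8% of all genes) and below in 4 (18.1% of all genes). The 8 higher genes were Cpt1a, Slc25a20, Hadhb, Hadh, Acaa1b, Bdh1, Acot2 and Vnn1. The 7 lower genes were Cpt2, Acadvl, Acaa2, Etfa, Etfb, Etfdh and Acot1. HFHF Flcn gRNA livers set against chow livers had 17 higher genes (20.9% of all genes), 1 lower gene, Acaa2 (21.7% of all genes), and 9 that did not pass, with a median of 0.36 against 0.00 over all genes. In 12 genes every HFHF Flcn gRNA library lay above every chow library, as did 9.01% of all genes, and in 0 genes below, as did 8.98%. The 3 comparisons share their libraries in pairs and are not independent of each other.

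**Figure D1:**
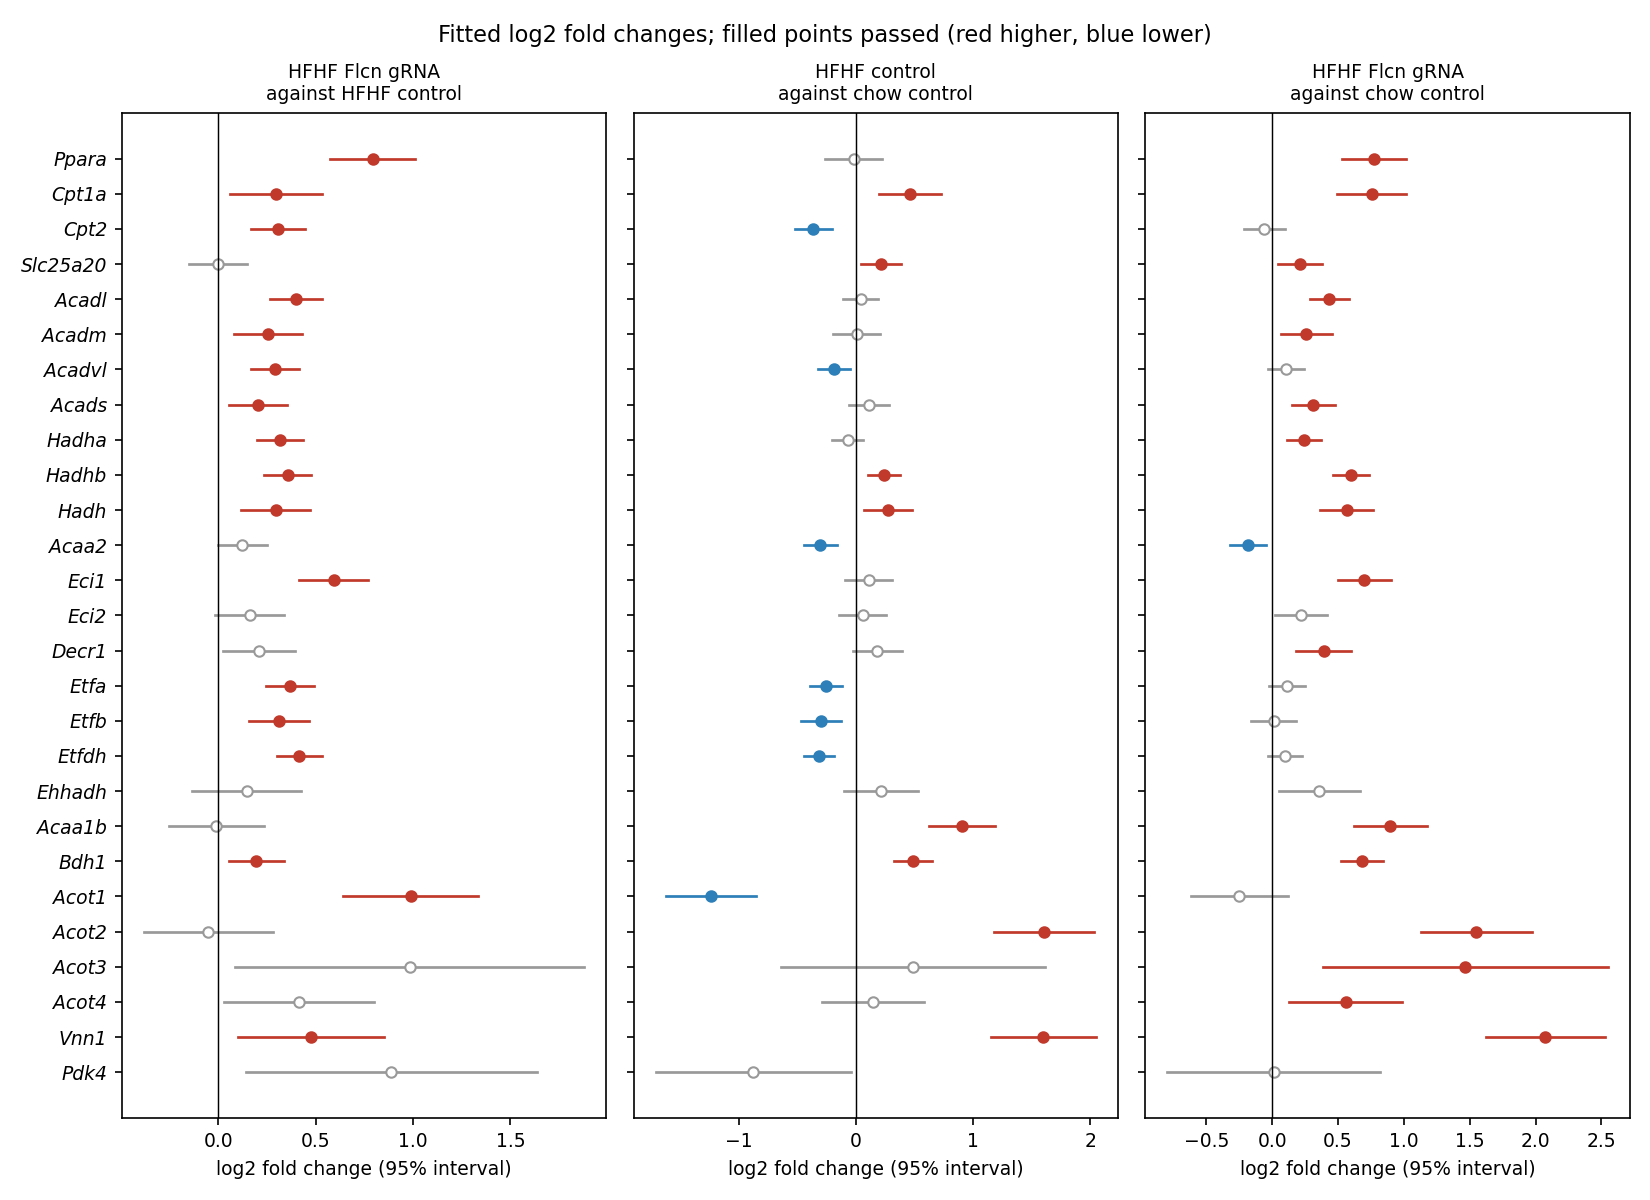
Fitted log2 fold changes (x axis) with 95% intervals for the 27 genes (y axis, ordered by step) in the 3 comparisons; red marks higher, blue lower, open grey not passed at an adjusted p under 0.05. In the left panel 17 genes are red and none blue, and in the middle panel 8 are red and 7 blue.

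Ppara (ENSMUSG00000022383, chr15:85734983-85802819, plus strand, GRCm38) encodes the fatty acid receptor itself. Its level was 125 to 191 CPM with a median of 159 in the 8 HFHF Flcn gRNA libraries and 64.4 to 111 CPM with a median of 94.0 in the 7 HFHF control libraries. The 5 chow libraries had 82.3, 103, 81.8, 106 and 84.8 CPM. Every library with the guide lay above every library of both control groups, which overlapped each other. The log2 difference was 0.79 ± 0.10 (SE) against HFHF control (edgeR adjusted p = 4.29e-06) and 0.77 ± 0.12 against chow (edgeR adjusted p = 1.98e-05). HFHF control against chow gave -0.02, with a 95% interval of -0.26 to 0.22. By level per kilobase of its longest coding transcript Ppara stood between Slc25a20 and Cpt2 in HFHF Flcn gRNA livers, at 45.8 CPM per kb against 57.4 and 40.2.

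The genes that carry long-chain acyl groups into mitochondria did not move together. Cpt1a, the outer membrane carnitine palmitoyltransferase and the rate-controlling step of entry, averaged 454 ± 74 CPM in HFHF Flcn gRNA, 370 ± 70 in HFHF control and 269 ± 23 in chow livers. Its log2 difference was 0.30 with the guide (edgeR adjusted p = 0.0425) and 0.46 with the diet (edgeR adjusted p = 0.00433); the guide groups overlapped. The call with the guide was lost, at adjusted p between 0.0504 and 0.107, when any 1 of 14 libraries was left out: replicates 2, 4, 6 and 7 of HFHF Flcn gRNA, replicates 2, 3, 4, 6 and 7 of HFHF control and all 5 chow libraries. Cpt2, the inner membrane enzyme that reforms acyl-CoA, averaged 95.3 ± 7.3, 77.1 ± 6.3 and 99.3 ± 11.5 CPM in the same groups. It was higher with the guide (log2 0.31, edgeR adjusted p = 0.0011) and lower with the diet (log2 -0.37, edgeR adjusted p = 0.000312). Slc25a20, the carnitine-acylcarnitine carrier between those enzymes, averaged 102 ± 11 CPM in HFHF Flcn gRNA livers and 102 ± 10 CPM in HFHF control livers, with a 95% interval of the log2 difference from -0.15 to 0.15. Against chow, at 88.5 ± 7.2 CPM, it was higher by 0.21 on the log2 scale in both HFHF groups; the diet call was lost without replicate 3 of HFHF control (adjusted p = 0.0555) or replicate 1 of chow (adjusted p = 0.0572), and the call of HFHF Flcn gRNA against chow without replicates 4 or 7 of the guide group or 1 of chow (adjusted p from 0.0527 to 0.0828).

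The acyl-CoA dehydrogenases, which open each round of oxidation, were all 4 higher with the guide. Acadl, the long-chain enzyme of rodents, had 207 to 283 CPM with a median of 243 in the 8 HFHF Flcn gRNA libraries and 170 to 202 CPM with a median of 179 in the 7 HFHF control libraries. In chow the 5 values were 180, 183, 173, 190 and 165 CPM. All 8 libraries with the guide lay above all 12 control libraries, by 0.40 ± 0.06 (log2, SE) against HFHF control (edgeR adjusted p = 4.43e-05). Acadvl, the very-long-chain enzyme of the inner membrane, averaged 349 ± 29, 285 ± 19 and 325 ± 11 CPM in HFHF Flcn gRNA, HFHF control and chow livers, a log2 difference of 0.29 with the guide and -0.19 with the diet. The diet call on Acadvl was lost, at adjusted p between 0.0549 and 0.108, without any 1 of 8 libraries: replicates 2, 3 and 5 of HFHF Flcn gRNA and each of the 5 chow libraries. Of the 51-base windows of Acadvl transcripts, 26.6% also occur in transcripts of Dvl2, so its counts may be uncertain. The medium-chain Acadm averaged 390 ± 47 CPM with the guide, 327 ± 46 in HFHF control and 326 ± 20 in chow livers (log2 0.25 against HFHF control, edgeR adjusted p = 0.0217). The short-chain Acads averaged 112 ± 14, 97.6 ± 7.5 and 90.4 ± 5.0 CPM (log2 0.20, edgeR adjusted p = 0.0267). The Acadm call was lost without replicate 2 of HFHF Flcn gRNA or replicate 2 or 6 of HFHF control, at adjusted p between 0.0514 and 0.0594, and the Acads call without replicates 4 or 6 of HFHF Flcn gRNA or 1, 4 or 6 of HFHF control, at adjusted p between 0.0532 and 0.0647.

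Hadha and Hadhb encode the subunits of the mitochondrial trifunctional protein, which hydrates, dehydrogenates and cleaves long acyl chains. In RefSeq (GRCm38.p6) they start 273 bases apart on chromosome 5 and are read away from each other, so they share the bases between them. Those that lie outside the annotated exons of both genes are shown because the subunits' levels are compared next (chr5:30155163-30155247, plus strand, read towards Hadhb; the capitals mark the 68 of 85 bases that also belong to the 250 bases before the Hadha start).
Hadha and Hadhb shared upstream: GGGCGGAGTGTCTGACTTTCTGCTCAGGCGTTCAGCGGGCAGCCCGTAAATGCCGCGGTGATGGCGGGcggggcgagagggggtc
Hadha had 362 to 468 CPM with a median of 417 in the 8 HFHF Flcn gRNA libraries and 300 to 354 CPM with a median of 340 in the 7 HFHF control libraries. Chow libraries held 334, 344, 345, 362 and 361 CPM. The libraries with the guide did not overlap those of either control group, and the highest chow library came within 1 CPM of the lowest of them. The log2 difference was 0.32 ± 0.06 with the guide (edgeR adjusted p = 0.000138). Hadhb averaged 279 ± 25 CPM with the guide, 218 ± 11 in HFHF control and 184 ± 4 in chow livers. Its log2 difference with the guide was 0.36 (edgeR adjusted p = 5.33e-05), close to that of Hadha. With the diet Hadhb was higher by 0.24 (edgeR adjusted p = 0.00367, every HFHF control library above every chow library), while the value for Hadha was -0.07 with a 95% interval of -0.20 to 0.06. Of the 51-base windows of Hadhb transcripts, 19.6% also occur in transcripts of other genes, mostly the overlapping Gm13910, so part of its counts may be uncertain.

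Hadh, the short-chain hydroxyacyl-CoA dehydrogenase, was higher with the guide (log2 0.29, edgeR adjusted p = 0.00951) and with the diet (log2 0.27, edgeR adjusted p = 0.0219), at 373 ± 45, 304 ± 35 and 252 ± 28 CPM in HFHF Flcn gRNA, HFHF control and chow livers. Acaa2, the mitochondrial thiolase that closes the round, averaged 601 ± 34, 552 ± 48 and 681 ± 26 CPM. It was lower with the diet by 0.30 on the log2 scale (edgeR adjusted p = 0.000591), with every HFHF control library below every chow library. With the guide the value was 0.12, with a 95% interval of -0.0018 to 0.25, and it passed at 0.15 without replicate 5 of HFHF control (edgeR adjusted p = 0.0425). Set against chow, Acaa2 in HFHF Flcn gRNA livers was the 1 lower gene of the set, at log2 -0.18 (edgeR adjusted p = 0.0315). That call was lost, at adjusted p between 0.0514 and 0.13, without any 1 of 10 libraries: replicates 1, 3, 5, 7 and 8 of HFHF Flcn gRNA and each chow library.

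The auxiliary enzymes, which handle the double bonds of unsaturated chains, were led by Eci1, a mitochondrial enoyl-CoA isomerase. Eci1 had 109 to 173 CPM with a median of 130 in the 8 HFHF Flcn gRNA libraries and 78.1 to 102 CPM with a median of 89.3 in the 7 HFHF control libraries. Levels in the 5 chow libraries were 75.2, 86.2, 82.2, 84.4 and 83.8 CPM. All 8 libraries with the guide lay above all 12 controls, with a log2 difference of 0.59 ± 0.09 against HFHF control (edgeR adjusted p = 1.31e-05) and 0.11 with the diet, which did not pass. Eci2, an isomerase found in mitochondria and peroxisomes, averaged 153 ± 18, 137 ± 17 and 131 ± 17 CPM and passed in none of the 3 comparisons; against chow its log2 value was 0.22, and that comparison passed without replicates 1, 3 or 5 of HFHF Flcn gRNA, 5 of HFHF control or 2 or 4 of chow (adjusted p from 0.0221 to 0.0481). Decr1, the dienoyl-CoA reductase, averaged 247 ± 38, 213 ± 21 and 188 ± 17 CPM; its log2 value with the guide was 0.21 (edgeR adjusted p = 0.0672), and it passed against chow, at 0.39. The guide comparison for Decr1 passed without replicates 1 or 5 of HFHF Flcn gRNA or replicate 5 of HFHF control, at adjusted p between 0.0267 and 0.0413.

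**Figure D2:**
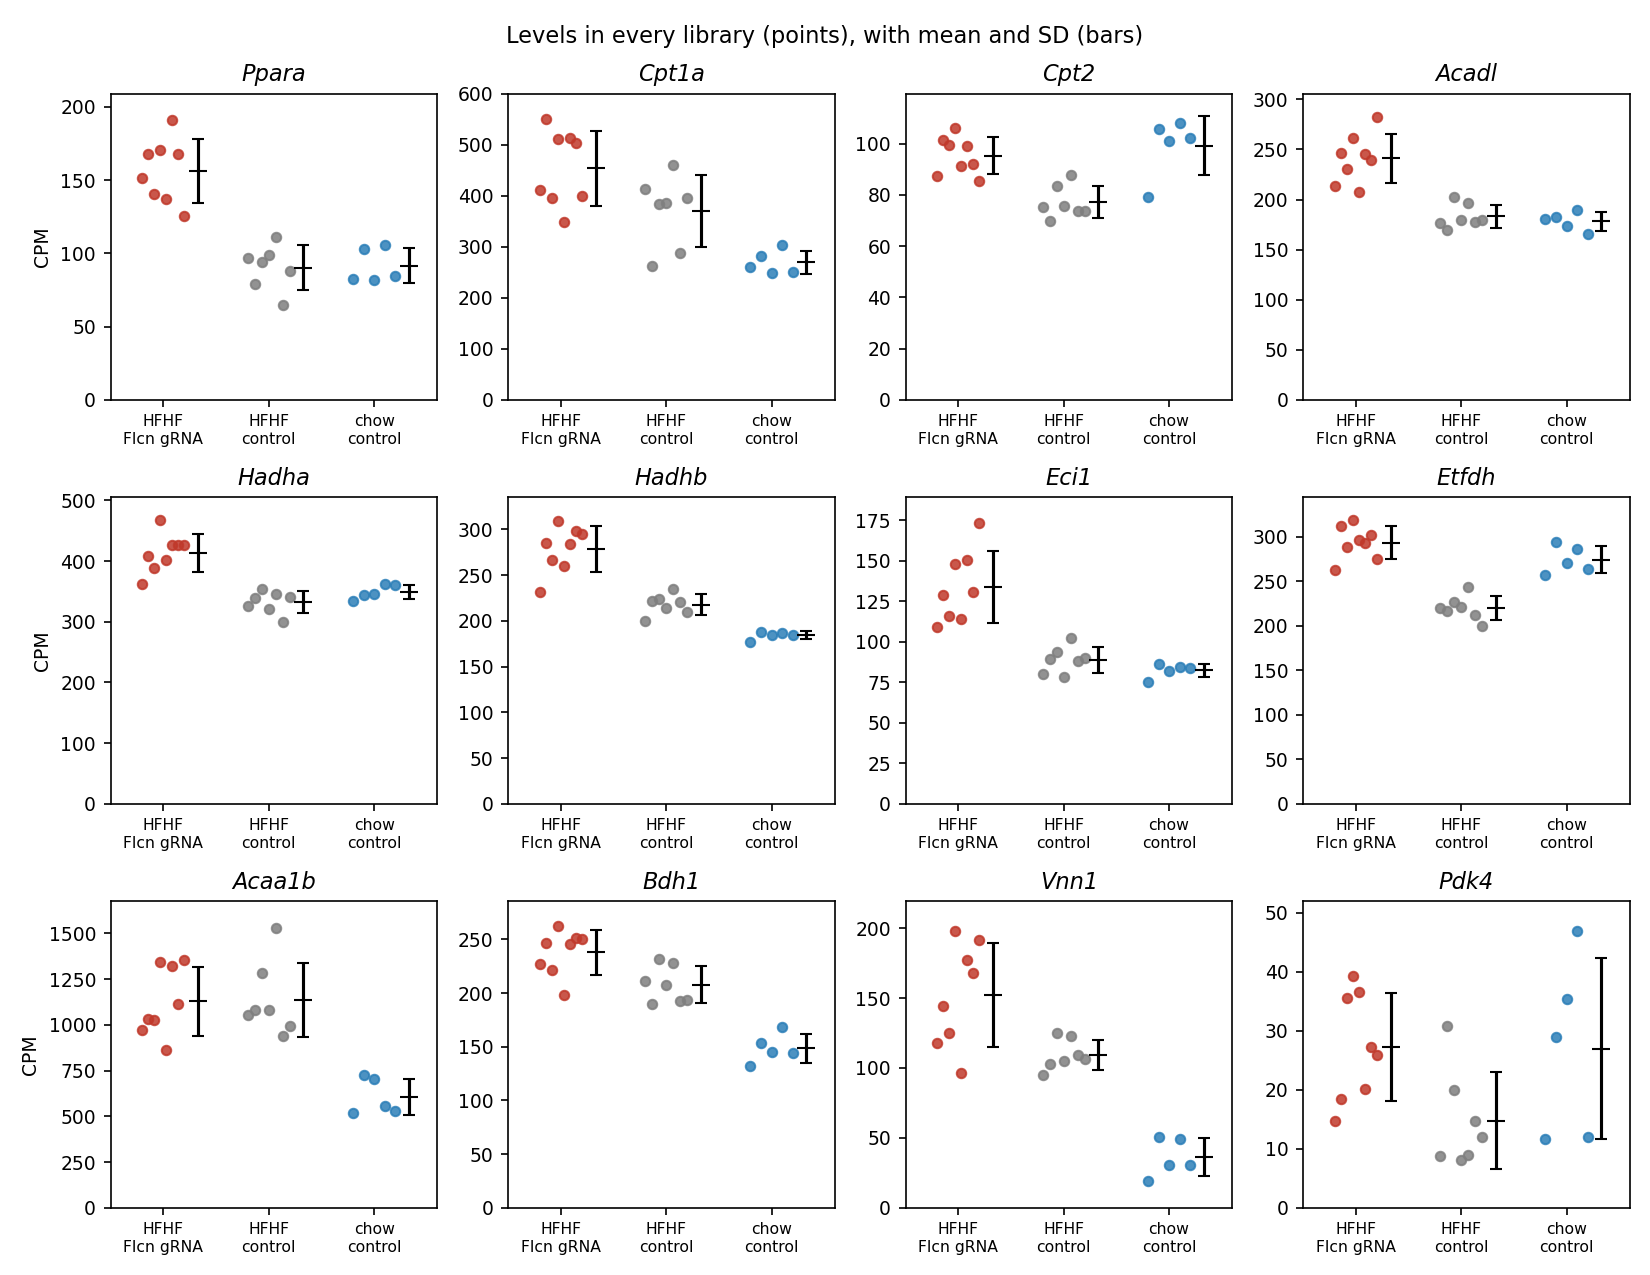
Levels in CPM (y axis, from 0) of 12 of the 27 genes in the 8 HFHF Flcn gRNA, 7 HFHF control and 5 chow libraries (x axis); points are libraries, bars the mean and SD. Ppara, Acadl and Eci1 lie higher in every library with the guide than in every control library, whereas Vnn1, Acaa1b and Bdh1 are lowest in chow.

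The electron transfer flavoprotein takes electrons from the acyl-CoA dehydrogenases, and by mean level its 2 subunit genes and that of its oxidoreductase were all lowest in HFHF control livers. Etfa, the alpha subunit, had 297 to 374 CPM with a median of 327 in the 8 HFHF Flcn gRNA libraries and 235 to 275 CPM with a median of 248 in the 7 HFHF control libraries. The 5 chow libraries had 319, 305, 310, 293 and 270 CPM. The groups with and without the guide on the HFHF diet did not overlap, and the chow libraries overlapped both. Etfdh, the ubiquinone oxidoreductase that passes the electrons to the respiratory chain, had 262 to 319 CPM with a median of 294 with the guide and 199 to 244 CPM with a median of 220 in HFHF control livers. Its 5 chow libraries had 257, 294, 271, 286 and 263 CPM. Every HFHF control library lay below every library of both other groups. Etfb, the beta subunit, averaged 218 ± 29, 175 ± 14 and 216 ± 9 CPM in HFHF Flcn gRNA, HFHF control and chow livers. The log2 differences with the guide were 0.37 for Etfa (edgeR adjusted p = 3.79e-05), 0.31 for Etfb (0.00208) and 0.42 for Etfdh (5.11e-06). With the diet they were -0.26 (0.00213), -0.30 (0.00415) and -0.32 (0.00016). These share the HFHF control libraries. HFHF Flcn gRNA against chow gave 0.11 for Etfa, 0.01 for Etfb and 0.10 for Etfdh, none of which passed, with 95% intervals of -0.02 to 0.25, -0.16 to 0.18 and -0.03 to 0.22. Of the Etfb windows of 51 bases, 44.6% are shared with another annotated gene, nearly all with Gm45233.

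RefSeq promoters (250 bases before to 50 after each start) were found for 24 of the 27 genes, 26 promoters in all. The direct repeat that PPARA and RXR bind, AGGTCA followed after any 1 base by AGGTCA, searched on both strands, occurred without mismatch in 0 of the 26, and in 0.0396% of all 32851 promoters. With up to 2 mismatches it occurred in 3 of the 26 (11.5%), against 3.86% of all promoters. The difference between these shares rests on 3 promoters and was not tested. The 3 were those of Etfa, Slc25a20 and Acot4, of which Etfa is shown because it was among the genes with no overlap between the guide groups, while the other 2 did not pass in that comparison. The palindrome CACGTG, the core recognised by folliculin-regulated TFEB and TFE3 among other factors, occurred in 1 of the 26 (3.85%), that of Acot4, against 7.15% of all promoters. The Etfa bases precede the start of the gene on the minus strand (chr9:55512244-55512363, minus strand, GRCm38.p6), and the capitals mark the match, which lies on the opposite strand to the gene and begins 77 bases before the start.
Etfa upstream: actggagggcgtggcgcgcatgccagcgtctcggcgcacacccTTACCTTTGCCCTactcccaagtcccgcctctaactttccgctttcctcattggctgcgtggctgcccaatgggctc

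Acaa1b and Ehhadh, the peroxisomal oxidation genes of the set, did not pass with the guide. Acaa1b, a peroxisomal thiolase and the gene with the highest level per kilobase of the 27 in HFHF Flcn gRNA livers (668 CPM per kb), had 862 to 1353 CPM with a median of 1074 with the guide and 939 to 1528 CPM with a median of 1079 in HFHF control livers. In chow the 5 values were 517, 723, 704, 558 and 527 CPM, all below every HFHF library. The log2 difference was -0.01 with the guide (95% interval -0.25 to 0.23) and 0.91 ± 0.14 with the diet (edgeR adjusted p = 6.98e-06). Acaa1b shares 30.1% of its 51-base windows with its paralog Acaa1a, so counts may be split between them. Ehhadh, the peroxisomal bifunctional enzyme, averaged 366 ± 76, 331 ± 59 and 286 ± 57 CPM in HFHF Flcn gRNA, HFHF control and chow livers. It passed in none of the 3 comparisons; against chow its log2 value was 0.36 (edgeR adjusted p = 0.0578). That comparison passed, at adjusted p between 0.0228 and 0.0426, without replicates 1, 5 or 6 of HFHF Flcn gRNA, 5 or 6 of HFHF control, or 2 or 3 of chow.

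Bdh1, the mitochondrial dehydrogenase that makes the ketone body beta-hydroxybutyrate from acetoacetate, was the ketone body gene of the set. It had 199 to 263 CPM with a median of 246 in the 8 HFHF Flcn gRNA libraries and 190 to 232 CPM with a median of 208 in the 7 HFHF control libraries. Chow libraries held 132, 153, 145, 169 and 144 CPM. Both HFHF groups lay wholly above chow and overlapped each other. The log2 difference was 0.48 ± 0.08 with the diet (edgeR adjusted p = 1.68e-05) and 0.20 ± 0.07 with the guide (edgeR adjusted p = 0.0266). The guide call was lost without replicates 2 or 4 of HFHF Flcn gRNA or replicates 2, 6 or 7 of HFHF control, at adjusted p between 0.055 and 0.0618.

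**Figure D3:**
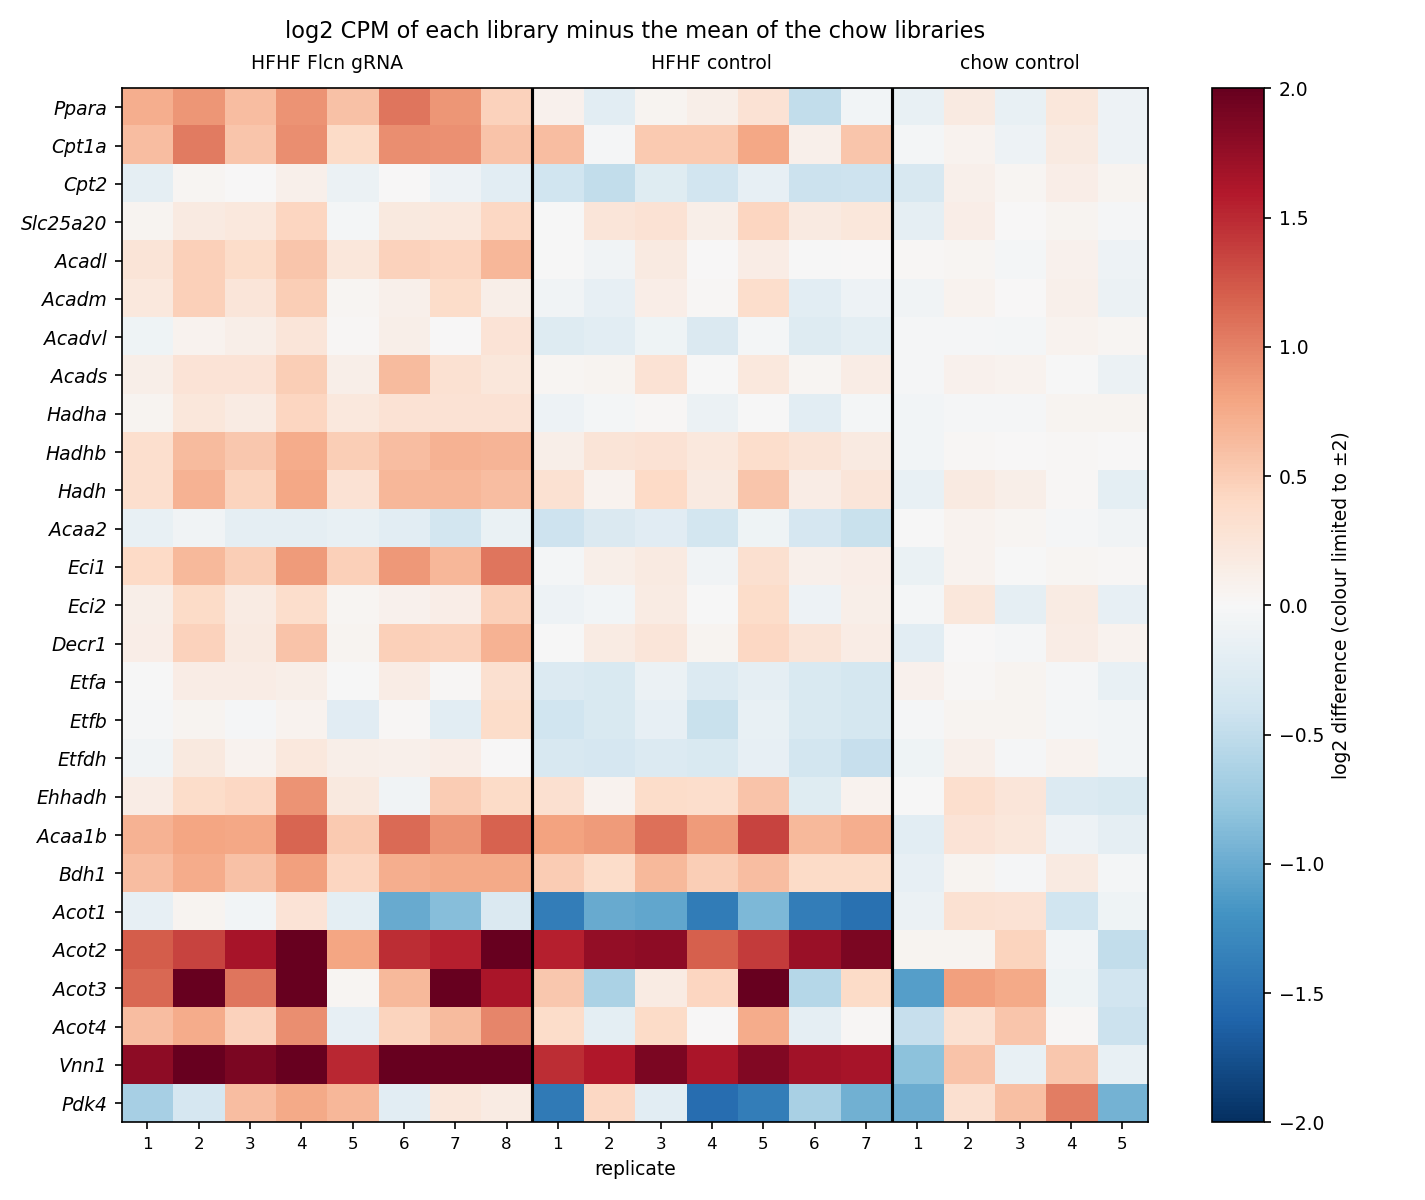
log2 CPM of the 27 genes (y axis) in each library (x axis, by replicate number within group) minus the mean of the 5 chow libraries; red is above and blue below that mean, with colours limited to 2 on either side. Vnn1 and Acot2 are red in all 15 HFHF libraries, and Acot1 is blue in all 7 HFHF control libraries.

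Acot1 to Acot4 encode acyl-CoA thioesterases from neighbouring genes on chromosome 12; in mouse Acot1 is cytosolic, Acot2 mitochondrial, and Acot3 and Acot4 peroxisomal. Acot1 and Acot2 are neighbours on the plus strand, and the bases before them are shown because their levels differed in direction with the diet (chr12:84009370-84009489 for Acot1 and chr12:83987741-83987860 for Acot2, plus strand, GRCm38.p6; the capitals mark the longest run shared by both windows, 9 bases).
Acot1 upstream: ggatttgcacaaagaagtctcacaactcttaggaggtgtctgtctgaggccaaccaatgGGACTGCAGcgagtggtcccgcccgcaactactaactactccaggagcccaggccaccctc
Acot2 upstream: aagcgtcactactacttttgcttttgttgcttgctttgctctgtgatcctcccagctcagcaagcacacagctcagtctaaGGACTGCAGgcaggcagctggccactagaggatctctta
Acot1 had 8.37 to 20.3 CPM with a median of 14.9 in the 8 HFHF Flcn gRNA libraries and 5.98 to 8.99 CPM with a median of 6.46 in the 7 HFHF control libraries. Levels in the 5 chow libraries were 15.5, 20.7, 20.7, 12.8 and 15.9 CPM. All HFHF control libraries lay below all chow libraries, and the highest of them overlapped the lowest with the guide. The log2 difference was 0.99 ± 0.17 with the guide (edgeR adjusted p = 9.28e-05) and -1.24 ± 0.19 with the diet (edgeR adjusted p = 9.45e-06). Acot2 had 5.89 to 15.02 CPM with a median of 9.67 with the guide and 7.82 to 12.5 CPM with a median of 11.3 in HFHF control livers. Its 5 chow libraries had 3.53, 3.52, 4.62, 3.27 and 2.41 CPM, all below every HFHF library. Acot2 was higher with the diet by 1.60 ± 0.21 (log2; edgeR adjusted p = 1.14e-06), and its value with the guide was -0.05, with a 95% interval of -0.38 to 0.28.

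The share of Acot1 in the sum of Acot1 and Acot2, a measure added after the data were seen, was 58.4% ± 9.5 in HFHF Flcn gRNA, 40.9% ± 5.7 in HFHF control and 83.0% ± 3.0 in chow livers (SD, n = 8, 7 and 5). In the libraries with the guide it was 65.6%, 66.9%, 60.3%, 59.1%, 71.5%, 47.1%, 48.6% and 47.9%. The highest HFHF control library, at 50%, overlapped the lowest of these, and all chow libraries lay above both HFHF groups. The sum was 24.6 ± 5.5, 17.8 ± 2.0 and 20.6 ± 4.0 CPM in HFHF Flcn gRNA, HFHF control and chow livers, and all 3 groups overlapped. Because the share was chosen for the directions already given for both genes, it is a description. Permutation p-values computed for it cannot serve as support and are not given. The genes share sequence: 13.5% of Acot1 windows of 51 bases occur in Acot2 transcripts and 24.4% of Acot2 windows in Acot1, so their counts may be split between them.

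**Figure D4:**
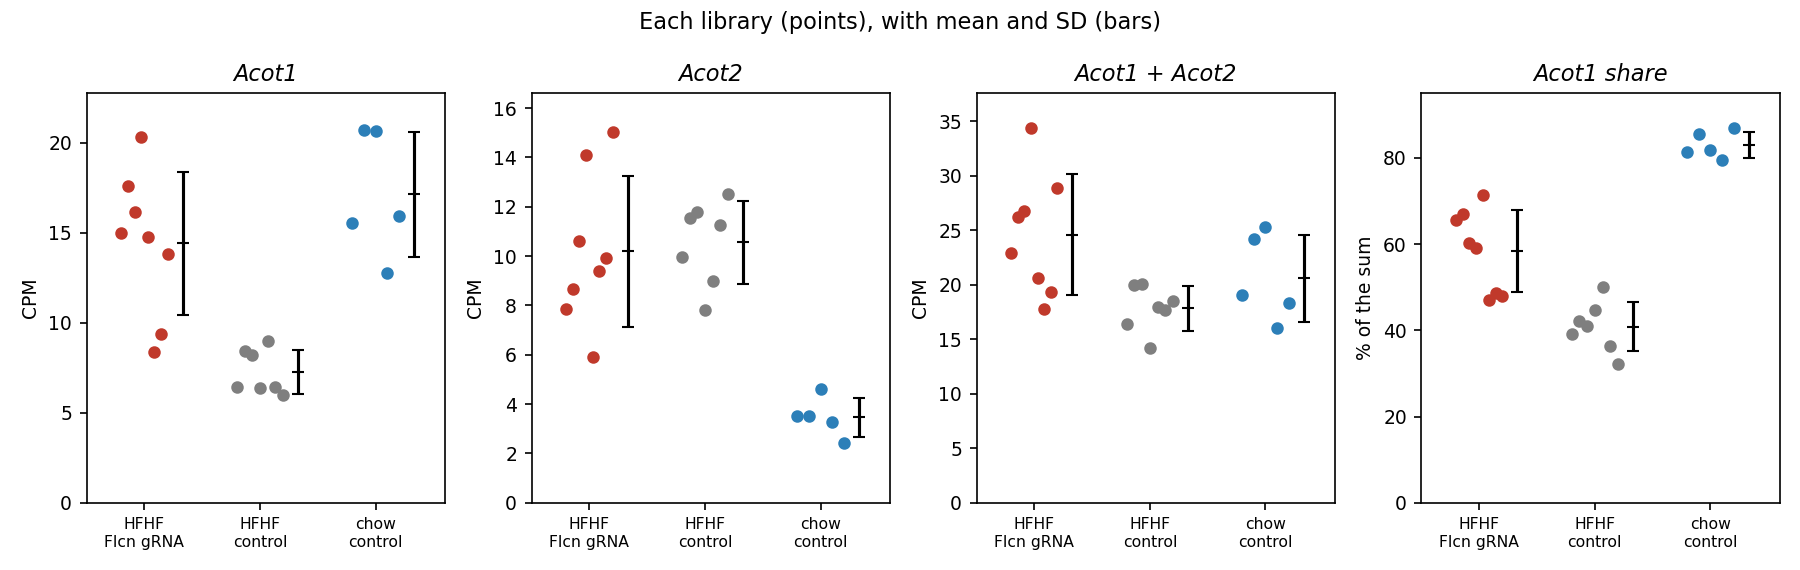
Acot1, Acot2 and their sum in CPM, and the share of Acot1 in the sum in percent (y axes, from 0), in the 8 HFHF Flcn gRNA, 7 HFHF control and 5 chow libraries (x axis); points are libraries, bars the mean and SD. The share is 79.6% to 86.9% in chow and 32.3% to 50% in HFHF control libraries, without overlap.

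Acot3 and Acot4 varied widely among libraries. Acot3 averaged 4.47 ± 2.48, 2.27 ± 1.94 and 1.61 ± 0.83 CPM in HFHF Flcn gRNA, HFHF control and chow livers, and its log2 value with the guide was 0.98 (edgeR adjusted p = 0.0779). Acot4 averaged 54.8 ± 12.1, 41.1 ± 10.4 and 37.2 ± 11.5 CPM, with a log2 value of 0.41 (edgeR adjusted p = 0.0826). Without replicate 5 of HFHF control the log2 values with the guide were 1.51 for Acot3 (edgeR adjusted p = 0.0034) and 0.52 for Acot4 (edgeR adjusted p = 0.0294); without replicate 5 of HFHF Flcn gRNA they were 1.11 (edgeR adjusted p = 0.0416) and 0.49 (edgeR adjusted p = 0.0282). Against chow both were higher in HFHF Flcn gRNA livers, Acot3 by 1.47 (edgeR adjusted p = 0.0284) and Acot4 by 0.56 (edgeR adjusted p = 0.0356). Leaving out a library ended the Acot3 call 5 times (replicates 2 and 4 of HFHF Flcn gRNA and 1, 4 and 5 of chow; adjusted p up to 0.0697) and the Acot4 call 5 times (replicates 4 and 8 of HFHF Flcn gRNA and 1, 4 and 5 of chow; adjusted p up to 0.0874). Of their 51-base windows, 21.1% for Acot3 and 13.2% for Acot4 also occur in transcripts of other genes.

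Vnn1, the pantetheinase vanin-1 and a sensitive PPARA target in mouse liver, had the largest log2 difference of the set between HFHF Flcn gRNA and chow livers. It had 96.4 to 198 CPM with a median of 156 in the 8 HFHF Flcn gRNA libraries and 94.9 to 125 CPM with a median of 106 in the 7 HFHF control libraries. The 5 chow libraries had 19.2, 50.6, 30.8, 49.2 and 30.7 CPM. Every HFHF library lay above every chow library, and both HFHF groups overlapped. The log2 difference was 1.60 ± 0.21 with the diet (edgeR adjusted p = 3.86e-06) and 2.08 ± 0.22 for HFHF Flcn gRNA against chow (edgeR adjusted p = 4.83e-07). With the guide on the HFHF diet it was 0.48 ± 0.18 (edgeR adjusted p = 0.0412), a call lost at adjusted p between 0.056 and 0.0848 without any 1 of 10 libraries: replicates 2, 4, 6, 7 and 8 of HFHF Flcn gRNA and 1, 2, 4, 6 and 7 of HFHF control.

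Pdk4, the kinase that inhibits pyruvate dehydrogenase and so spares glucose when fat is burned, also varied widely within groups. It had 14.7 to 39.2 CPM with a median of 26.6 in the 8 HFHF Flcn gRNA libraries and 8.07 to 30.8 CPM with a median of 11.9 in the 7 HFHF control libraries. In chow the 5 values were 11.6, 29.0, 35.3, 46.9 and 12.0 CPM. All 3 groups overlapped. The log2 value was 0.89 ± 0.36 with the guide (edgeR adjusted p = 0.0568) and -0.88 ± 0.40 with the diet (edgeR adjusted p = 0.0672), and neither passed. Without replicate 2 of HFHF control both passed, at 1.17 (edgeR adjusted p = 0.0129) and -1.16 (edgeR adjusted p = 0.0141). The guide comparison also passed without replicate 1 of HFHF Flcn gRNA or replicates 1, 4 or 5 of chow, and the diet comparison without replicates 1 or 5 of chow.

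Single libraries stood high or low for many of the 27 genes at once. In the HFHF Flcn gRNA group, replicate 4 was above the group mean for 27 genes and the highest for 12, replicate 8 was the highest for 10, and replicate 5 was the lowest for 16. In the HFHF control group, replicate 5 was the highest for 19 genes. In chow, replicate 2 was the highest for 13 and replicate 1 the lowest for 13. Without replicate 8 of HFHF Flcn gRNA, the library rich in mitochondrially encoded counts, 16 genes were higher with the guide and 0 lower, and without replicate 5 of HFHF control 21 were higher and 0 lower.

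Other genes of the same and related pathways, 99 in 8 lists of which 96 were measured, were counted in the same fit. With the guide 49 of the 96 (51.0%) were higher and 10 (10.4%) lower, against 19.6% and 19% of all genes tested, with a median log2 difference of 0.25 against 0.01 over all genes. With the diet 22 (22.9%) were higher and 43 (44.8%) lower, against 28.1% and 28.9% of all genes, with a median of -0.18 against -0.01. In HFHF Flcn gRNA livers against chow 31 (32.3%) were higher and 17 (17.7%) lower, against 20.9% and 21.7% of all genes. Of the other mitochondrial oxidation enzymes 13 of 14 were higher with the guide and 0 lower by edgeR (0 also at an unadjusted p under 0.05, and 0 by DESeq2), while with the diet 1 was higher and 9 were lower (64.3%, against 28.9% of all genes). Much of this list serves amino acid or propionate breakdown rather than straight-chain fatty acids. That holds for Acadsb, Acad8, Ivd, Gcdh, Hsd17b10, Mut, Pcca, Pccb and Mcee, among them the 3 with the smallest p. Acad8, the isobutyryl-CoA dehydrogenase of valine breakdown, averaged 58.5 ± 3.2 CPM with the guide and 44.1 ± 2.5 CPM in HFHF control livers. Mut, the methylmalonyl-CoA mutase, averaged 171 ± 8 CPM and 128 ± 14 CPM, and Gcdh, the glutaryl-CoA dehydrogenase of lysine and tryptophan breakdown, 530 ± 32 CPM and 378 ± 55 CPM in those groups.

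**Figure D5:**
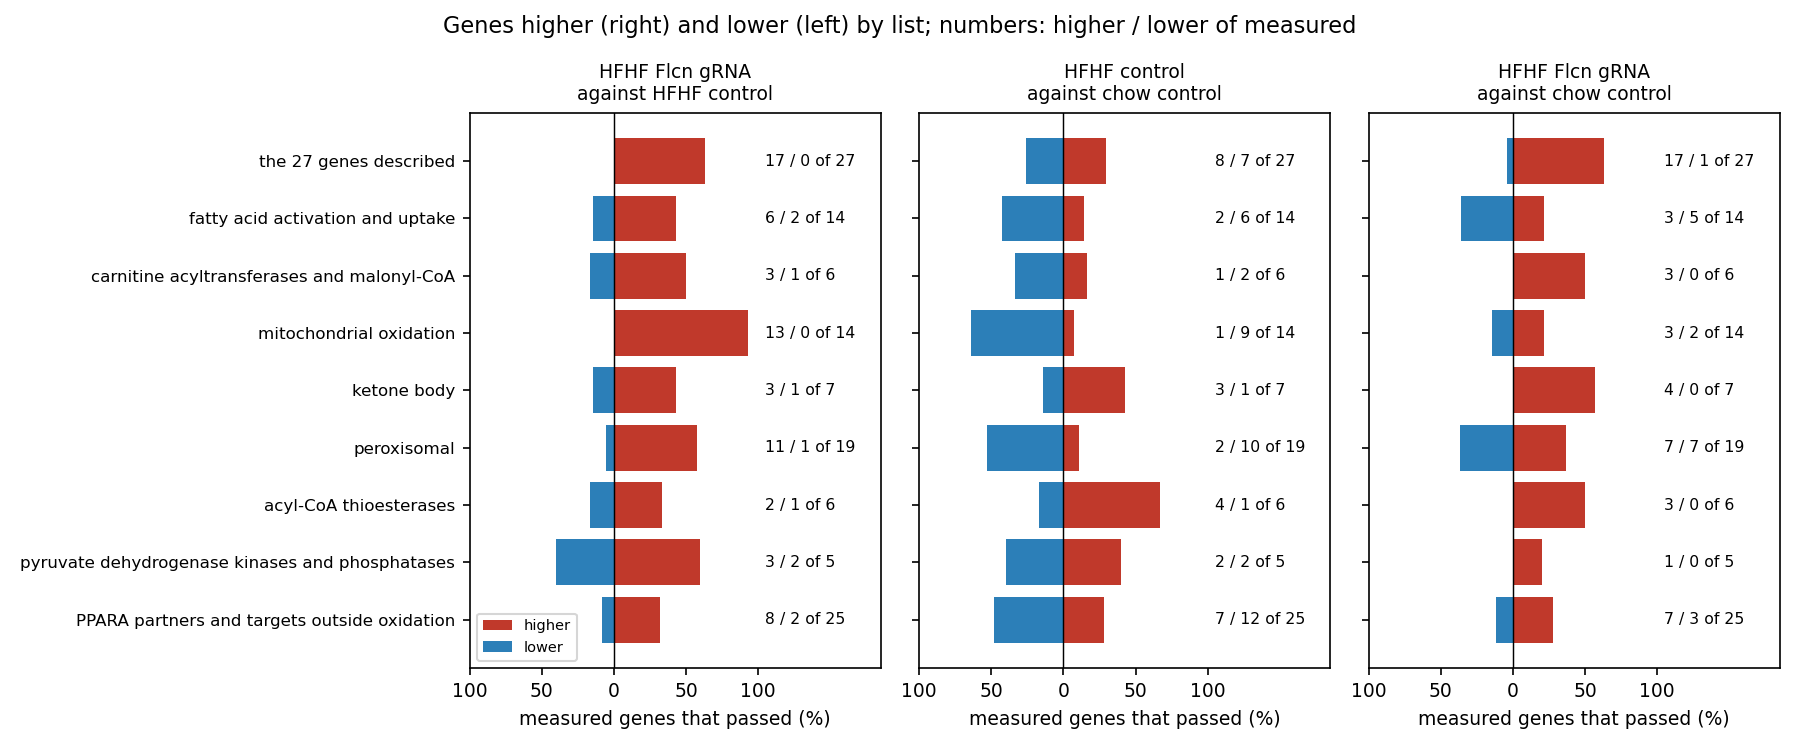
Percent of measured genes that were higher (red, right of 0) or lower (blue, left of 0) at an adjusted p under 0.05 in the 3 comparisons, for the 27 genes described and 8 lists of other pathway genes (y axis); the numbers give higher, lower and measured genes. The mitochondrial oxidation list has 13 of 14 genes higher with the guide and 9 of 14 lower with the diet. That list also holds enzymes of amino acid breakdown.

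Of the fatty acid activation and uptake genes, 6 of 14 (42.9%) were higher with the guide, against 19.6% of all genes, and 2 (14.3%) were lower, near the 19% of all genes. Acsl1, the main long-chain acyl-CoA synthetase of liver, averaged 784 ± 61 CPM with the guide, 512 ± 82 in HFHF control and 1263 ± 116 in chow livers, a log2 difference of 0.61 with the guide and -1.30 with the diet. The medium-chain synthetases Acsm3 and Acsm1 were higher with the guide by 1.16 and 0.52 (log2). Dbi, the acyl-CoA binding protein, and Slc27a4, a fatty acid transport protein, were lower, with log2 differences of -0.27 and -0.19. Of the carnitine and malonyl-CoA genes, 3 of 6 (50%, against 19.6% of all genes) were higher with the guide and 2 did not pass. The low Cpt1c was the 1 lower gene (16.7%, near the 19% of all genes). Acacb, which makes the malonyl-CoA that inhibits CPT1, averaged 114 ± 39 CPM with the guide and 43.2 ± 12.1 CPM in HFHF control livers (log2 1.40); Mlycd, which breaks malonyl-CoA down, and Crot, a peroxisomal carnitine octanoyltransferase, were higher by 0.23 and 0.28.

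Of the other peroxisomal genes 11 of 19 measured (57.9%) were higher with the guide, against 19.6% of all genes, and 1 (5.26%, against 19%), Pex11a, a factor of peroxisome division, was lower (log2 -0.26). With the diet 2 (10.5%) were higher and 10 (52.6%) lower, against 28.1% and 28.9% of all genes. Acox3, a peroxisomal acyl-CoA oxidase, averaged 29.4 ± 2.6 CPM with the guide and 21.5 ± 1.0 CPM in HFHF control livers (log2 0.45). Pecr, a peroxisomal enoyl-CoA reductase, and Nudt7, a peroxisomal hydrolase of coenzyme A, were higher by 0.47 and 1.03. Of the 7 other ketone body genes, 3 (42.9%, against 19.6% of all genes) were higher with the guide and 1 (14.3%, against 19%) lower. Bdh2, the cytosolic hydroxybutyrate dehydrogenase, averaged 12.6 ± 1.8 CPM with the guide, 5.93 ± 1.39 in HFHF control and 14.8 ± 3.0 in chow livers (log2 1.08 with the guide). Acat1, the mitochondrial acetoacetyl-CoA thiolase, and Aacs, a cytosolic acetoacetyl-CoA synthetase, were higher by 0.26 and 0.52, and Oxct1, which lets tissues burn ketone bodies and is low in liver, was lower (log2 -0.42).

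Of the other thioesterases 2 of 6 measured were higher with the guide (33.3%, against 19.6% of all genes). These were Acot11 and Acot12, by 0.67 and 0.36 (log2). Acot9 was lower (log2 -1.14), the 1 lower gene of the list (16.7%, against 19% of all genes). All 5 of the other pyruvate dehydrogenase kinases and phosphatases passed, against 38.6% of all genes, and in both directions. Pdp2, Pdk2 and Pdk1 were higher by 0.70, 0.74 and 0.27, and the low Pdp1 and Pdk3 were lower, at -0.93 and -1.09. Of 25 partners of PPARA and targets outside oxidation 8 (32%) were higher and 2 (8%) lower with the guide, against 19.6% and 19% of all genes. With the diet 7 (28%) were higher, a share like the 28.1% of all genes, and 12 (48%) were lower, against 28.9%. Cyp4a10, a fatty acid omega-hydroxylase and a classical PPARA target, averaged 493 ± 140 CPM with the guide, 146 ± 55 in HFHF control and 341 ± 68 in chow livers, a log2 difference of 1.76 with the guide and -1.22 with the diet. Its relative Cyp4a32 and Pank1, a pantothenate kinase, were higher with the guide by 1.09 and 0.64. Ucp2, a mitochondrial carrier protein, averaged 18.1 ± 3.4 CPM with the guide, 36.7 ± 4.8 in HFHF control and 11.9 ± 1.3 in chow livers, and Fgf21, the fasting hormone that PPARA controls, 2.96 ± 0.83, 6.37 ± 2.51 and 0.412 ± 0.356 CPM. Both were lower with the guide, at -1.02 and -1.10 on the log2 scale, and higher with the diet, by 1.63 and 3.93.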

How the data were processed

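The deposited table holds estimated counts per gene (expected counts, which need not be whole: 77.8% of values of at least 1 were), made by the authors on GRCm38 per the submitters' processing notes. Libraries were made with an mRNA kit and adapters carrying molecular identifiers and read as 51 bases from a single end, per the labels' protocols. Not given in the sources used here are the aligner, the counter, the annotation, and whether strand and identifiers were used. 1 column matching no label was not used, and 22 construct features (2.2e-06% of counts) were left out. Symbols came from GENCODE M21.

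Counts were rounded, filtered with filterByExpr and scaled by TMM, and 13667 genes were fitted over all 20 libraries with edgeR 4.0.16 (R 4.3.3; robust quasi-likelihood, 17 residual degrees of freedom, common coefficient of variation 0.164); p-values were adjusted by Benjamini-Hochberg over all genes and called at 0.05. DESeq2 1.42.0 was an alternative. The fit was tested on simulated data. Groups follow the diet and treatment labels; replicate numbers are in accession order and pair no libraries. Libraries of a group differed beyond sampling noise in every pair (chi-square per degree of freedom of 12.3 or more), and nothing says that each came from a separate animal, so p-values measure the spread between libraries, which may be technical. Levels per kilobase used the longest coding transcript. Sequences are RefSeq's, GRCm38.p6.

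The 27 genes and the other lists were chosen with earlier results of these data known. Named beyond the 27 were, from each list, up to 3 genes called higher and up to 3 called lower with the guide, by smallest p, and Acsl1 and Fgf21 in other comparisons; 1 further gene under that rule is not reported here. The Acot1 share and the fit without mitochondrially encoded genes were added after the data were seen.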

Additional observations from a re-analysis of the deposited data

Results flagged for a closer look

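A single library lay far from the others of its group in 3 of 84 groups of libraries (28 genes, Flcn included, in 3 groups), no more than the about 1 in 20 that chance gives under this criterion. Cpt2 was lowest in chow replicate 1, at 79.3 CPM against 101 CPM in the nearest library, a gap of 0.786 of the group's log2 range. Acot4 was lowest in HFHF Flcn gRNA replicate 5, at 32.0 CPM against 48.7 CPM in the nearest library, a gap of 0.533 of the range. Acot3 was highest in HFHF control replicate 5, at 6.54 CPM against 2.08 CPM in the nearest library, a gap of 0.584 of the range.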

How the results depend on the processing

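The counts of genes called higher among the 27 stayed within 1.5 times of those reported under DESeq2 size factors, upper-quartile scaling, no low-count filter, fits of only the groups compared, DESeq2's own test, and each library left out: with the guide 12 to 19 under the other settings (12 with upper-quartile scaling, 13 without a filter) and 12 to 21 with a library left out. Genes called lower in HFHF Flcn gRNA against chow fell to 0 with upper-quartile scaling, without a filter and with only those groups, and were 0 to 1 with a library left out. Flcn in HFHF Flcn gRNA against chow missed the threshold at -0.32 with DESeq2 size factors, -0.29 with upper-quartile scaling, -0.29 without a filter, -0.32 without mitochondrially encoded genes, -0.31 with only those groups and -0.32 with DESeq2, and ranged from -0.38 to -0.12 with a library left out; in HFHF control against chow it ranged from -0.16 to 0.11. Values near 0 changed sign. So did Acot3 in HFHF control against chow on leaving out a library, although its value with all libraries was 0.48. In HFHF control against chow, Ppara was 0.070 with upper-quartile scaling and 0.016 without a filter, and Hadha was 0.022 with upper-quartile scaling. With a library left out, that comparison ranged from -0.043 to 0.066 for Ppara, -0.025 to 0.060 for Acadm and -0.014 to 0.75 for Acot3. With the guide the ranges were -0.040 to 0.025 for Slc25a20, -0.061 to 0.064 for Acaa1b and -0.16 to 0.023 for Acot2, and against chow -0.022 to 0.069 for Etfb and -0.16 to 0.32 for Pdk4. Calls on Cpt1a, Acads, Bdh1 and Vnn1 with the guide were lost with upper-quartile scaling and without a filter, those on Cpt1a and Acads also with only the groups compared, that on Acadm with upper-quartile scaling, and that on Acadvl with the diet under both. Against chow, the calls on Acot3 and Acot4 in HFHF Flcn gRNA were lost without a filter. Calls were gained with the guide on Acot3 (DESeq2) and Pdk4 (DESeq2, only the groups compared), with the diet on Acads and Decr1 (upper-quartile scaling), and for HFHF Flcn gRNA against chow on Eci2 and Ehhadh (upper-quartile scaling; Ehhadh also DESeq2). The cause was not tested. No paired analysis was possible because the labels give no replicate numbers. Depth limits Acot3 most, at a mean of 1.61 to 4.47 CPM.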
